A study of Papio hamadryas with 17 samples.

Results

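Of the 17 kidney cortex biopsies from baboons, 3 carried large amounts of skeletal muscle RNA, and they are set here against the other 14, which read as kidney. The 3 libraries, female 1, female 2 and male 6, were selected on measured signal: they are those in which both ACTA1, the actin of the skeletal muscle thin filament, and CKM, the creatine kinase of muscle, read above 10000. ACTA1 read 51850.0, 81747 and 35238 in these libraries, in that order, and 0 to 9.53 (median 0.713) in the other 14. CKM read 19905, 29472 and 19110.1 against 0.318 to 18.6. The lowest value inside the threshold was thus the CKM signal of male 6 and the highest outside it was the CKM signal of female 3, so no library lay near the threshold. These values chose the libraries. All genes measured in the same libraries count as part of that choice, so the differences below are given as descriptions and carry no test.

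The study collected ultrasound-guided biopsies of kidney cortex from 8 female and 9 male baboons of 1 colony, to compare gene networks between the sexes. All animals had eaten a low-salt chow for life and received no treatment, and each gave 1 library of stranded mRNA. Ages as labelled, without a unit, were 19 for female 1, 19 for female 2 and 12 for male 6. The other 6 females were labelled 15 to 19 and the other 8 males 6 to 13. All animals had the same sedation and anaesthetic, and all 3 muscle-rich samples carry the same tissue label as the rest.

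Skeletal muscle fibres contract through sarcomeres, repeating units of actin and myosin filaments anchored at Z-discs, which respond to calcium released from an internal store. Fast and slow fibres use different paralogs of troponin, myosin light chain and calcium pump. The nephron, by contrast, is a chain of epithelial segments: the proximal tubule reclaims most filtered solutes, the thick ascending limb dilutes the urine and secretes uromodulin, and the distal and collecting segments adjust salt, water and acid under hormonal control.

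Values are called signal, the deposited read abundance per transcript after subtraction of its offset of 1, summed per gene. Series of 3 values follow the order female 1, female 2, male 6, and series of 2 follow the order female 1, female 2. A gene is called higher or lower where the 2 sets of libraries did not overlap and the means of log2(signal + 1) differed by at least 1, and log2 differences are always muscle-rich minus other. The male rows held here end at the symbol KCTD9 within the turquoise module, the last of their 9 modules. Of the transcripts of both tables, all 2003 that were higher belonged to turquoise, so the genes called higher over the 17 libraries have symbols from A to K (1277 of 1279, the others being date-like MARCH and SEPT symbols). Genes from L to Z, and those with K symbols after KCTD9, were therefore not open to a higher call over the 17 libraries, whatever their list. Of the 4903 genes from A to K, 1277 were higher and 522 lower. These 4903 include the K symbols after KCTD9. Muscle genes from L to Z are described in the 2 muscle-rich and 6 other females. Genes were kept where the mean signal was at least 1 in either set, so a gene with a mean under 1 in the other libraries was kept only through the muscle-rich ones and had to have the higher mean there. Such genes numbered 259 of 9826 over the 17 libraries and 765 of 13642 in the females. Counts for the muscle and fat lists are therefore given with the number of such members, and support nothing by themselves.

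Over the 9826 genes of both tables, 1279 (13.0%) were higher and 1349 (13.7%) lower in the 3 libraries, with a median log2 difference of -0.21. After median scaling of the libraries the counts were 1612 and 1173, which moved the higher share of all calls from 48.7% to 57.9% and the median difference to -0.02. Of the 6189 genes with transcripts of the female table alone, 2852 (46.1%) were higher and 326 (5.27%) lower in the 2 females, and 547 were lower without female 1. The higher share of those calls was 89.7% as deposited, 58.3% after median scaling and 39.0% after upper-quartile scaling. Over all transcripts of the female table, a comparison added after the male rows were seen to end within 1 module, 4602 (33.7%) of 13642 genes were higher and 1836 (13.5%) lower, with a median of 0.50. That female split depended on scaling: 71.5% of calls were higher as deposited, 54.3% after median scaling and 38.0% after upper-quartile scaling. In the females over all transcripts, 1258 of the 1279 higher and 1143 of the 1349 lower genes were called the same way, but the female libraries are part of the 17, so most of this sharing is built in. Large differences were frequent, with 108 higher genes above a log2 difference of 5 and 37 lower genes below -5.

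The summed signal of the shared transcripts was 540860, 670142 and 540174 in the 3 libraries and 259197 to 440508 in the others. Read totals were not analysed here, so relative depth is unknown. Between 9075 and 9428 genes had a signal above 0 in the muscle-rich libraries and between 9525 and 9780 in the others. In bulk samples, fewer cells of a type and less RNA per cell cannot be told apart. ACTA1 alone took 9.59%, 12.2% and 6.52% of the shared signal, and ATP2A1, the calcium pump of fast fibres, took 4.40%, 4.34% and 3.70%.

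Among the 5 genes that mark the tissues, ATP2A1 (gene31700, NC_018171.2, 26202060 to 26230146, minus strand) read 23777, 29078 and 19988 in the muscle-rich libraries and 0 to 2.38 (median 0.384) in the other 14. UMOD (gene31605, NC_018171.2, 18571499 to 18591621, minus strand), which encodes uromodulin, read 20.8, 12.3 and 939 against 1669 to 11030.4 (median 5248). LRP2 (gene21239, NC_018163.2, 54872200 to 55087351, minus strand), the endocytic receptor megalin of the proximal tubule, read 1.18, 0.947 and 7.04 against 7.98 to 294 (median 155). None of the 5 overlapped between the sets, but male 6 kept far more UMOD than the 2 females did, and its LRP2 signal lay just under that of the lowest other library, female 3. ACTA1 is gene3082, NC_018152.2, 198354485 to 198357356, minus strand, and CKM is gene30673, NC_018170.2, 38835425 to 38849722, minus strand, with log2 differences of 14.66 and 11.94.

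**Figure D1:**
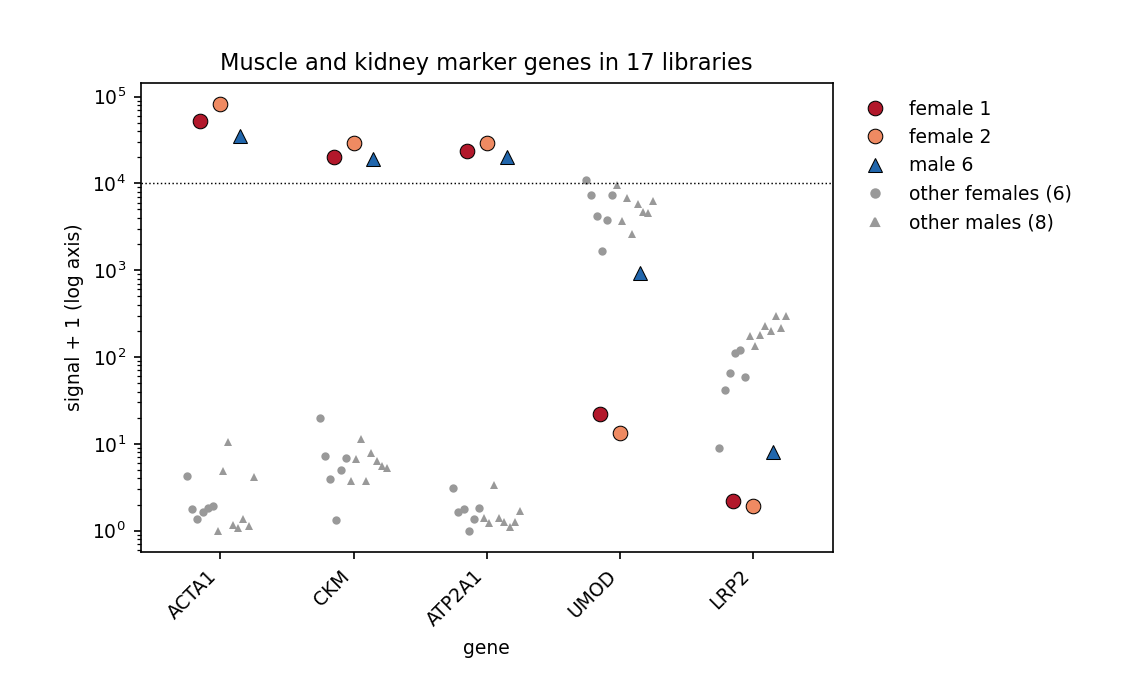
Signal + 1 on a log axis for the 5 marker genes in all 17 libraries; coloured symbols are the 3 muscle-rich libraries, grey circles the other 6 females, grey triangles the other 8 males, and the dotted line the threshold of 10000. ACTA1, CKM and ATP2A1 lie above the threshold in the 3 libraries and UMOD and LRP2 lie below every other library.

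Genes of the contractile apparatus were higher without exception among the fast-fibre and slow-fibre members found in both tables, 3 of 3 and 2 of 2, of which 3 and 1 had a mean under 1 in the other libraries. Fast-fibre members included CASQ1, the calcium-binding protein of the fast-fibre store, at 1909, 2448 and 1645 against 0 to 0.122 (median 0), and ACTN3, the Z-disc actinin of fast fibres, at 5662, 8289 and 4797 against 0 to 1.69 (median 0.480). ATP2A2, the calcium pump of slow fibres and of many other cells, was the slow-fibre member with signal in every kidney library, at 2049, 4019 and 2394 against 43.4 to 103 (median 64.1). The cardiac and slow-fibre calsequestrin CASQ2 read 139, 138 and 101 against 0 to 0.636 (median 0.102). Signal of both fibre types was thus present in each of the 3 libraries, in amounts between which no gene-to-gene comparison is made because transcript length scaling is not known.

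In the females, 9 of 10 fast-fibre and 11 of 11 slow-fibre genes were higher, with 8 and 4 under 1 in the other females. Troponin T of fast fibres, TNNT3, read 8441 and 10809 against 0 to 0.275 (median 0.194), and its slow counterpart TNNT1 read 3259 and 5044 against 0 to 5.31 (median 1.05). For the troponin I pair, TNNI2 of fast fibres read 3908 and 5209.9 against 0 to 0.318 (median 0.284). TNNI1 of slow fibres read 2689 and 3879 against 0.646 to 2.74 (median 1.62). Both libraries therefore held fast and slow troponins far above any other female. The slow myosin light chain MYL2 read 6876 and 6443 against 0 to 0.287 (median 0.0373), the fast light chain MYLPF 5809 and 7792 against 0 to 0.225 (median 0.116), and the myosin-binding proteins MYBPC1 (slow) and MYBPC2 (fast) 8192 and 14288 and 8626 and 12093. PVALB, a calcium buffer of fast fibres in rodents that is also made in the distal convoluted tubule, was the member that went against the list, at 14.2 and 0.631 against 7.95 to 40.7 (median 26.3). The myosin heavy chain genes MYH1, MYH2, MYH4 and MYH7 were not found under those symbols. Developmental forms were low but above the other libraries: ACTC1, the cardiac and fetal actin, read 57.3, 9.15 and 83.7 against 0 to 0.425 (median 0.0726), and MYH3, the embryonic myosin heavy chain, 5.45 and 9.59 in the females against 0 to 0.0562 (median 0).

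Scaffold proteins of the sarcomere followed, with 8 of the 9 measured higher over the 17 libraries and 33 of 33 in the females. Of these, 6 and 21 had a mean under 1 in the other libraries, and the remaining 3 and 12 were higher too. DES, the intermediate filament that links Z-discs, read 7747, 8959.6 and 5451 against 0.585 to 14.1 (median 4.66). FLNC, the muscle filamin, read 4638, 3401 and 2458 against 0.955 to 5.39 (median 2.71). ACTN2, the Z-disc actinin of all fibres, read 4338, 3858 and 3017 against 0.166 to 1.28 (median 0.595). The exception over 17 libraries was LDB3, a Z-disc adaptor of which only part of the transcripts were shared. Over all its transcripts it read 3555 and 5504 in the 2 females against 2.34 to 6.74 (median 4.35). Nebulin (NEB), the ruler of the thin filament, read 4325 and 6332 against 0 to 0.613 (median 0.113). Its signal was thus near the floor in the other females. ANKRD1, a titin-associated protein induced by stress, differed among the muscle-rich libraries, at 446, 17.0 and 573 against 0 to 0.636 (median 0).

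The 11 shared genes of excitation-contraction coupling that were measured were higher, and 19 of 19 in the females, with 7 and 12 under 1 in the other libraries. CACNA1S, the voltage sensor of the T-tubule, read 936, 1125 and 889.9 against 0 to 0.184 (median 0). RYR1, the calcium release channel it opens, read 4419.5 and 6983 in the females against 0 to 0.562 (median 0.0473). JPH2, which holds the T-tubule membrane to the store, read 924, 1195 and 676 against 0.955 to 5.69 (median 2.95). CACNA1S and JPH2 were at most a few units in the other 14 libraries, and RYR1 in the other 6 females. SLN, a small inhibitor of the calcium pump, read 2898 and 2891 against 1.52 to 94.8 (median 9.13), a wide range among the other females.

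At the neuromuscular junction, 4 of 6 shared genes were higher (2 of them under 1 in the other libraries), 1 was lower and 1 overlapped. The acetylcholine receptor subunit CHRNB1 read 153, 153 and 155 against 2.69 to 7.93 (median 4.79), and ACHE, which breaks acetylcholine down, 32.0, 35.0 and 54.5 against 0 to 0.871 (median 0.138). AGRN, an extracellular organiser of the junction that is also a component of kidney basement membrane, went against the list at 32.4, 27.3 and 57.8 against 151 to 387 (median 262), on part of its transcripts. In the females it read 33.4 and 33.3 against 170.3 to 421 (median 277) on all of them. COLQ, which anchors the esterase, overlapped at 1.89, 1.67 and 0.329 against 0.112 to 1.99 (median 0.958). The 6 shared genes of the dystrophin complex were higher, 3 of them under 1 in the other libraries, with DMD itself at 107, 119.9 and 95.4 against 1.49 to 5.45 (median 3.04) and DYSF, a membrane repair protein, at 428, 439 and 309.6 against 18.0 to 48.9 (median 30.1). In the females 13 of 13 were higher, 5 of them under 1 in the others, among them the sarcoglycan SGCA (124 and 128 against 0 to 0.636).

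Genes of muscle energy supply were higher in 13 of 15 shared cases and in 22 of 24 cases in the females, with 3 and 7 members under 1 in the other libraries. ENO3, the muscle enolase, read 9495, 13573 and 9747 against 1.04 to 9.05 (median 2.60). CA3, the carbonic anhydrase of slow muscle, read 4017, 3063 and 2625 against 0 to 0.372 (median 0). ALDOA, a glycolytic aldolase present in most cells, read 13459.6, 17493 and 10009.5 against 168 to 335 (median 281). The kidney libraries therefore held some ALDOA but almost no CA3 or ENO3. PYGM, the glycogen phosphorylase of muscle, read 10078 and 15167 in the females against 0.497 to 1.29 (median 0.654), and myoglobin (MB), the oxygen store, 7249 and 9445 against 0 to 0.450 (median 0.116). EEF1A2, the elongation factor of muscle and neurons, read 3026, 3055 and 2185 against 0 to 0.918 (median 0.399). The 2 members that did not meet the criterion were SLC16A3, a lactate exporter, at 54.2 and 36.9 in the females against 15.8 to 33.8 (median 28.8), and PPARGC1A, a regulator of mitochondrial genes, at 18.9, 15.1 and 17.6 against 24.5 to 60.4 (median 34.3). PPARGC1A was thus below all others in the muscle-rich libraries but missed the log2 difference of 1 narrowly.

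Enzymes with a muscle form and a form of broader or renal use differed in opposite directions in several pairs. CKM had a log2 difference of 11.94 and CKB, the creatine kinase of brain and kidney, -4.25. ENO3 had 11.43 and ENO1 -1.39. FBP2, the fructose bisphosphatase of muscle, had 6.67 and FBP1, that of liver and kidney, -5.85. The muscle form was higher and the other lower, without overlap, in these 3 pairs and for ACTN3 and ACTN4 (11.93 and, on part of its transcripts, -1.43) and the fatty acid carriers FABP3 and FABP1 (2.53 and -2.03). Within the females FABP1 missed the criterion. SLC25A4, the ADP/ATP carrier of muscle and heart, read 1151 and 1692 in the females against 29.9 to 73.8 (median 47.8), and SLC25A5, the form of dividing and epithelial cells, 15.1 and 15.6 against 73.5 to 109 (median 85.3). ATP2A1 and ATP2A2, by contrast, were both higher, and cytoplasmic actin ACTB overlapped at 903, 590.3 and 779 against 661 to 1357 (median 1036).

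Chaperones and proteases of muscle were higher in 9 of 9 shared and 13 of 13 female cases, with 1 and 5 members under 1 in the other libraries. CAPN3, the calpain of muscle, read 1056, 1499.9 and 730.3 against 0.122 to 5.70 (median 2.22). HSPB7, a small heat shock protein of heart and muscle, read 1323, 1122 and 1492 against 0.822 to 2.98 (median 1.26), and CRYAB, a chaperone for desmin, 1600.2, 901 and 1521 against 57.2 to 227 (median 109.6). The muscle ubiquitin ligase genes FBXO32 (296, 356 and 171 against 4.22 to 17.8) and TRIM63 (139 and 149 in the females against 0 to 0.189) were part of the same list. Of the myogenic factors, 4 of 14 were shared, and 1 of these was higher, 1 lower and 2 (MEF2A and MEF2C, on part of their transcripts) met neither criterion. In the females 10 were measured and higher, of which 6 were under 1 in the other females and measured only through the muscle-rich pair. MYOD1, which sets muscle identity, read 71.5 and 66.6 and MYF6, the factor of mature fibres, 126 and 109, with MYOD1 at 0 in all 6 other females and MYF6 at 0 to 0.0746 (median 0). The co-activator VGLL2 read 215 and 149.9 and was also at 0 in the others. MEF2D shows what the missing male rows do: on its shared transcripts it was lower (-2.68), and over all transcripts in females it was higher, at 269 and 431 against 6.71 to 16.4 (median 13.4). Of the genes lower on part of their transcripts, 24 were higher in females on all of them, and 0 of those with every transcript shared were.

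Outside these lists, the 15 genes with the largest positive differences were APOBEC2, FHL1, HFE2, C9H10orf71, ANKRD23, ASB2, C8H8orf22, IGFN1, ART1, FHL3, DUPD1, DUSP13, CAP2, DUSP27 and ANK1, with log2 differences from 9.30 down to 7.38. APOBEC2, a muscle member of the cytidine deaminase family, read 561, 1362 and 877 against 0.260 to 0.757 (median 0.357). FHL1, a LIM-domain protein of the sarcomere, read 6816, 8607 and 5129 against 2.72 to 22.8 (median 9.37) on part of its transcripts. HFE2, or hemojuvelin, a bone morphogenetic protein co-receptor of iron control that muscle and liver make, read 578, 766 and 402 against 0 to 1.16 (median 0.278). The 3 libraries read far above every kidney library in each of them. ART1, an ADP-ribosyltransferase of the muscle surface, read 204, 326 and 256 against 0 to 0.386 (median 0.0790), and CAP2, an actin-recycling protein of striated muscle, 516, 559 and 304 against 0.585 to 2.46 (median 1.39). C8H8orf22 read 720.3, 1129 and 186, with male 6 lowest.

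DUPD1, DUSP13 and DUSP27 among these are dual-specificity phosphatases, a family that removes phosphate from tyrosine and serine or threonine. DUPD1 read 196, 251 and 154, DUSP13 208, 193 and 182 and DUSP27 218, 217 and 177, against at most 0.636 for DUSP27 and 0.0562 for the other two. Over the whole family, 12 of 21 were higher and 1 lower. The ASB family, substrate adaptors of ubiquitin ligases, had 12 of 16 higher and 1 lower. Of the genes from A to K, 1277 of 4903 were higher. DUPD1, DUSP13, DUSP27 and ASB5 had a mean under 1 in the other libraries and were kept only through the muscle-rich ones. Both family counts include such members and support nothing by themselves. The largest of the ASB family were ASB2 (1140.4, 736 and 587 against 0.305 to 2.44), which targets filamins, and ASB5 (244, 187 and 122 against 0 to 0.875). ASB9 was the member that was lower, at 0.710, 0.316 and 2.93 against 11.9 to 34.7 (median 22.1). Potassium channels split evenly, with 11 of 37 higher and 11 lower, the higher count being near the share of all genes from A to K. KCNJ11, the pore of the ATP-sensitive channel, read 432, 398 and 181 against 1.87 to 5.53 (median 3.54). KCNJ1, the secretory channel of the distal nephron, read 1.66, 0.631 and 15.0 against 45.2 to 191 (median 108).

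Among transcripts of the female table alone, the largest positive differences outside the lists were those of TPM2, MYO18B, PPP1R27, PADI2, RPL3L, TPM1, NMRK2, PRKAG3, SMPX and SPTB. TPM2, a tropomyosin of the thin filament, read 12492 and 18614 over all its transcripts against 58.1 to 103 (median 64.4). RPL3L, a muscle paralog of ribosomal protein L3, read 317 and 572 against 0 to 0.318 (median 0.166), and RPL3 itself was the ribosomal protein gene that was lower, at 145 and 90.5 against 205 to 373 (median 289). PRKAG3, the AMP-activated kinase subunit of fast muscle, read 275 and 368 and NMRK2, a nicotinamide riboside kinase of muscle, 284 and 469, both at 0 in every other female. Of the KLHL family, 14 of 31 were higher and 3 lower in females, and 10 and 5 under upper-quartile scaling. Of all genes in the females, 33.7% were higher and 13.5% lower as deposited. The family was led by KLHL41 (2499.6 and 2545 against 0 to 0.281) and KLHL40 (473 and 299 against 0 to 0.166), which stabilise thin-filament proteins. Both had a mean under 1 in the other females and were kept only through the muscle-rich pair. Complex I genes with NDUF symbols were higher in 40 of 46 cases and lower in 0, and proteasome subunits in 27 of 37 and 0. Under upper-quartile scaling these counts were 17 and 0 for complex I and 18 and 3 for the proteasome. Ribosomal protein genes were higher in 36 of 72 cases as deposited and in 1 under upper-quartile scaling, so their count rests on the scaling.

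**Figure D2:**
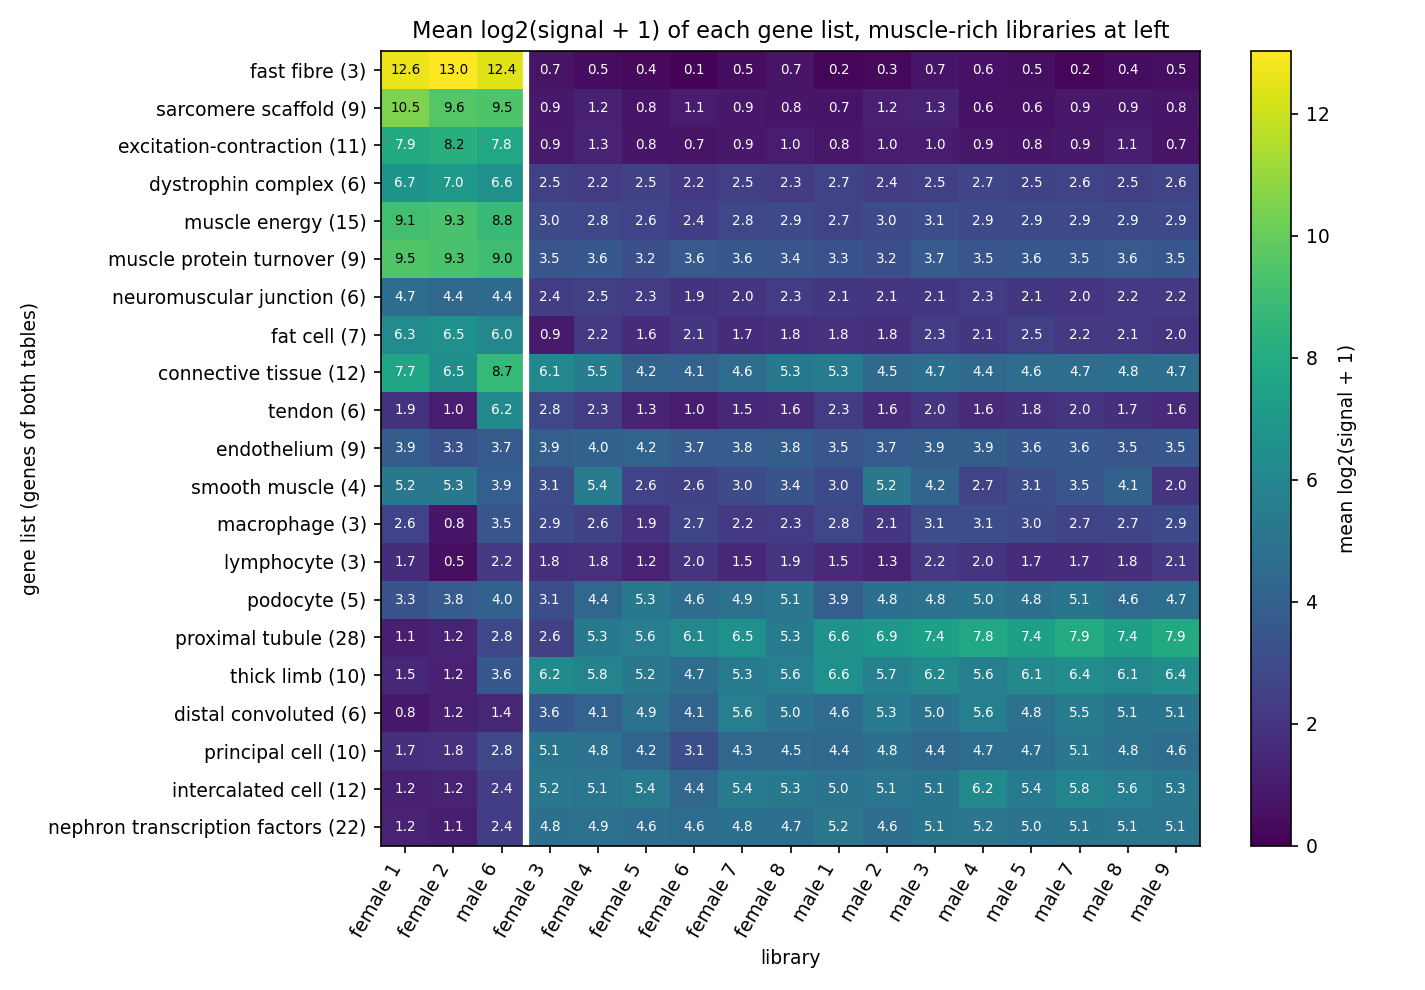
Mean log2(signal + 1) of each gene list in each library, with the 3 muscle-rich libraries at left and the number of genes of both tables in parentheses; colour repeats the printed value. Muscle and fat lists are high and tubule lists low in the 3 libraries, male 6 is alone in the tendon list, and female 3 has the lowest proximal tubule value (2.56) among the other 14.

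In the kidney, thick limb genes were lower in 9 of 10 shared cases. SLC12A1, the salt cotransporter of this segment, read 0.947, 0.316 and 51.9 against 83.7 to 346 (median 181). CLDN10, a claudin that forms its cation pore, read 0.237, 0 and 3.82 against 22.9 to 76.4 (median 44.5), and CASR, the calcium sensor, 0, 0.316 and 8.81 against 21.9 to 44.3 (median 33.2). Male 6 held more of each than the females did. PTGER3, a prostaglandin receptor, overlapped, at 2.84, 2.84 and 7.92 against 3.82 to 72.4 (median 23.1). EGF, an epithelial growth factor of the distal nephron, was lower too, at 35.7, 30.9 and 43.4 against 48.3 to 241 (median 117). In the females PPP1R1A, a phosphatase inhibitor placed in the thick limb list, went against it at 787 and 1112 against 34.6 to 206 (median 51.9).

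Proximal tubule genes had a median log2 difference of -5.27, with 12 of 28 lower and none higher. Members with symbols from L to Z were not open to a higher call there. In the females over all transcripts, 21 of 26 were lower and 0 higher. Much of the overlap over the 17 libraries involved 1 kidney library, female 3, whose proximal tubule genes were the lowest of the 14. Without it, 25 of the 28 were lower. SLC34A1, the phosphate transporter, read 2.60, 0.947 and 20.8 against 31.5 to 1214 (median 623). MIOX, which opens the inositol ring, read 6.15, 3.16 and 99.8 against 47.3 to 2169 (median 1228), so male 6 overlapped with the lowest kidney library. GATM, which makes the creatine precursor guanidinoacetate, did not follow them. It read 136, 219.9 and 81.0 against 15.0 to 1018 (median 384), and in the females the muscle-rich libraries at 136 and 219.9 lay within the range of the others, 15.0 to 291.

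In the distal convoluted tubule 4 of 6 genes were lower, among them the thiazide-sensitive cotransporter SLC12A3 (0, 2.52 and 0.484 against 2.54 to 498) and the calcium buffer CALB1 (0.473, 0.316 and 8.22 against 45.8 to 571). WNK1, a kinase with a long form in most tissues, was higher in the females at 122 and 115 against 16.4 to 43.7 (median 26.2). Among principal cell genes 5 of 10 were lower and 1 higher. AQP2, the vasopressin-regulated water channel, read 2.13, 3.16 and 42.6 against 45.2 to 376 (median 219.7). AQP4, a water channel of the collecting duct that fast muscle fibres also carry, was the higher one at 17.0, 72.9 and 14.1 against 0 to 0.112 (median 0). The 14 kidney libraries thus held almost no AQP4. Intercalated cell genes were lower in 8 of 12 cases, with the anion exchanger SLC4A1 at 1.66, 3.79 and 9.69 against 84.6 to 377 (median 174) and the proton pump subunit ATP6V1B1 at 1.18, 1.58 and 5.58 against 52.2 to 188 (median 111).

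Transcription factors of the nephron were lower in 20 of 22 cases and higher in 0, though members from L to Z were not open to a higher call. In the females over all transcripts, 22 of 23 were lower and 0 higher. PAX8, a factor of the whole renal epithelium, read 3.79, 0.316 and 11.2 against 105 to 228 (median 143). HNF4A, of the proximal tubule, read 0.710, 0.947 and 4.11 against 6.69 to 285 (median 128), and FOXI1, which specifies intercalated cells, 0, 0 and 0.587 against 15.6 to 55.3 (median 33.0). ESRRB (3.79, 5.36 and 3.82 against 1.23 to 13.5) and IRX3 (5.92, 4.10 and 24.3 against 5.85 to 31.4) overlapped. IRX3 overlapped through female 1, narrowly, and through male 6.

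Of 5 shared podocyte genes, CLIC5 was higher, TCF21 lower and 3 met neither criterion, shares near those of all genes. CLIC5, a channel-like protein of the podocyte foot process that muscle also makes, read 408, 706 and 300.3 against 1.86 to 77.4 (median 53.9). TCF21, a factor of podocytes and stroma, read 0, 0 and 2.05 against 12.5 to 57.3 (median 20.5). In the females 2 of 10 were higher, 3 lower and 5 neither. WT1, a podocyte transcription factor, and PODXL, its surface sialoprotein, were lower, at 0 and 0.316 against 1.41 to 31.2 and 35.3 and 40.1 against 50.5 to 429. SYNPO, an actin organiser of podocytes with a muscle form, was among the higher at 1556 and 1906 against 64.2 to 133 (median 116), while the slit-diaphragm gene NPHS1 was at 0 in both. NPHS1 was also at 0 in the lowest other female, so it did not meet the criterion.

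How much kidney signal remained differed among the 3 libraries. Summed over the thick limb list, female 1 held 1.02% and female 2 0.772% of the median of the other females, and male 6 18.0% of the median of the other males. These sums were mostly UMOD, and with it left out the values were 10.3%, 8.62% and 21.5%. For intercalated cells the values were 3.78%, 4.26% and 11.7%, and for the nephron transcription factors 5.44%, 5.05% and 12.3%. Male 6 was highest of the 3 in each of these lists. For the proximal tubule the values were 5.64%, 8.54% and 4.06%, and 1.19%, 1.31% and 3.42% with GATM left out. Segments were therefore not depleted equally in male 6, which kept a larger share of the thick limb sum than of the proximal tubule sum.

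Outside the lists, the 15 genes with the largest negative differences were RGL3, CDH16, DPEP1, PDZK1IP1, SLC27A2, TSPAN1, TMEM213, TINAG, PDZK1, CLDN2, PIGR, PROM2, TMEM52B, EPCAM and KIF12, with log2 differences from -6.02 to -5.05. RGL3, a guanine exchange factor for Ral, read 0.270, 0.443 and 0.941 against 60.1 to 305 (median 83.1) on part of its transcripts. CDH16, the kidney-specific cadherin, read 3.31, 2.21 and 31.7 against 241 to 672 (median 463), and EPCAM, an epithelial adhesion molecule, 1.18, 0.631 and 11.7 against 51.5 to 212 (median 130.2). CDH16 and EPCAM are made along much of the tubule, and the sets did not overlap in either. PIGR, which carries immunoglobulin across epithelia, read 1.42, 0.316 and 18.5 against 80.5 to 241 (median 136). Among genes without a symbol, LOC101014452 and LOC101015173, both annotated as cytochrome P450 4A11 or like it, read 6.97, 3.47 and 36.5 and 1.55, 0.316 and 6.63, against 60.3 to 1172 (median 724) and 9.83 to 366 (median 160.2). LOC103877943, annotated as the gamma subunit of the sodium pump, read 3.55, 5.05 and 68.4 against 395 to 992 (median 608). No LOC gene was higher over the 17 libraries, since the male rows end before that letter in the turquoise module.

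Gene families of epithelia followed the same direction. Claudins, which seal and select the space between epithelial cells, were lower in 10 of 15 cases and higher in 0, with a median log2 difference of -3.12. All 4 shared keratins were lower, with KRT8 at 0, 1.58 and 4.70 against 22.4 to 45.1 (median 33.8) and KRT18 at 1.37, 1.07 and 1.78 against 15.0 to 26.7 (median 19.4). Glucuronosyltransferases (UGT symbols) were lower in 5 of 11 cases. Both UGT and KRT symbols come after KCTD9, so a higher call was not open to these families over the 17 libraries. In the females over all transcripts, 7 of 10 UGT and 4 of 6 KRT genes were lower and 0 of either were higher. Of all genes in the females, 33.7% were higher and 13.5% lower. Among transcripts of the female table alone, the largest negative differences were those of SLC22A7, NEFH, TJP3, SSPO, CAPS, DPP7, PRR35, CRB2, RHPN1 and CGREF1. SLC22A7, an organic anion transporter, read 0.473 and 0 against 1.57 to 75.1 (median 30.2), and TJP3, a tight-junction scaffold, was at 0 in both muscle-rich females against 7.64 to 31.1 (median 16.2).

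HOX genes, whose expression marks the position of a tissue along the body axis, were measured in 27 cases, of which 12 were lower, 2 higher and 13 met neither criterion. HOXD10 read 0, 0 and 1.17 against 9.55 to 26.7 (median 13.4), and HOXB4 to HOXB9 were all lower, with HOXB6 at 5.68, 2.21 and 8.81 against 20.6 to 75.7 (median 35.9). HOXC10 was higher, at 47.6, 44.8 and 88.1 against 11.7 to 26.2 (median 20.7), and so was HOXD1, at 13.0, 28.7 and 11.2 against 2.23 to 9.75 (median 6.45). HOXC6, HOXC8 and HOXC9 read above the median of the kidney libraries but overlapped, with HOXC8 at 23.4, 24.9 and 13.8 against 6.38 to 15.8 (median 7.99). After median scaling 3 were higher and 10 lower. HOXA9 differed among the muscle-rich libraries, at 0.710, 0.631 and 12.9, with 8.60 as the median and 9.71 as the highest of the other 14.

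**Figure D3:**
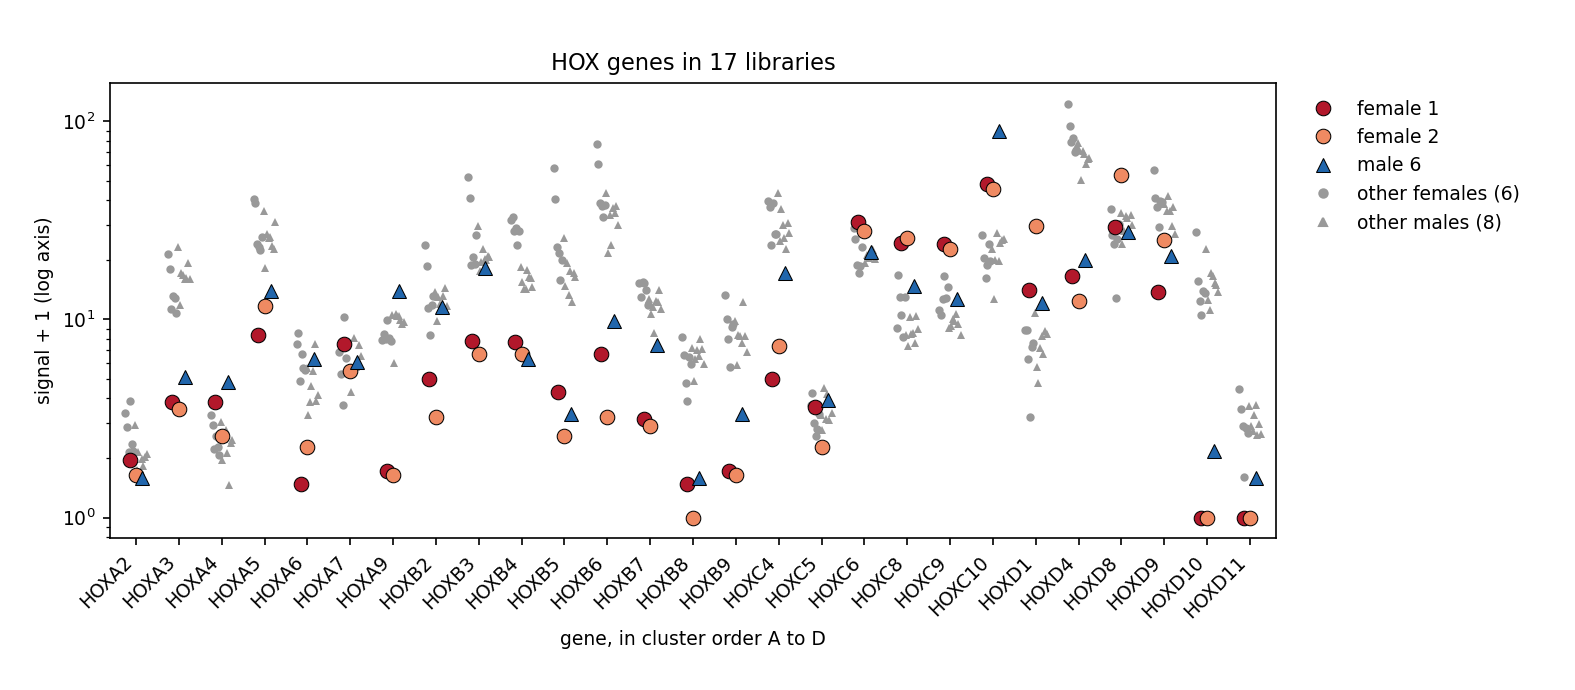
Signal + 1 on a log axis for the 27 HOX genes of both tables, in cluster order; coloured symbols are the 3 muscle-rich libraries and grey symbols the other 14. HOXB4 to HOXB9 and HOXD10 lie under the grey points in all 3 coloured libraries and HOXC10 lies above them.

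Some genes had signal in both sets but from different transcripts. Over the 17 libraries, 1767 genes with every transcript shared could be examined. They had a mean signal of at least 5 in both sets and at least 1 in each library. Genes with turquoise transcripts past the end of the male rows at KCTD9 were not among them. Of the 1767 genes, 47 (2.66%) had a transcript whose share differed by at least 50 percentage points without overlap. ATP5C1, the gamma subunit of the mitochondrial ATP synthase, gave 95.5%, 96.4% and 96.5% of its signal as variant X2 in the muscle-rich libraries and 0.506% to 7.12% in the others. ATP2A2 gave 89.7%, 89.3% and 77.9% as variant X4 and at most 4.41% elsewhere. BIN1, which shapes T-tubules in muscle, gave 57.2%, 62.7% and 66.5% as variant X26 and at most 0.286% elsewhere. In each of these genes the 3 libraries used a transcript that the kidney libraries hardly used. CAPZB, the capping protein of actin filament ends, gave 58.2%, 53.4% and 54.4% as variant X5 and at most 0.861% elsewhere. For the formin FHOD1 the share of variant X1 was 68.0%, 65.4% and 66.4%, against 1.06% to 7.32%. The 10 genes with the largest difference in share were ABI1, ATP5C1, GMPPA, CHRNB1, ATP2A2, FRMD3, ATG13, CNNM3, ATP2B1 and HMGN3. Shares are the submitters' assignment of reads to transcripts, and the variant numbers are those of the deposited annotation.

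**Figure D4:**
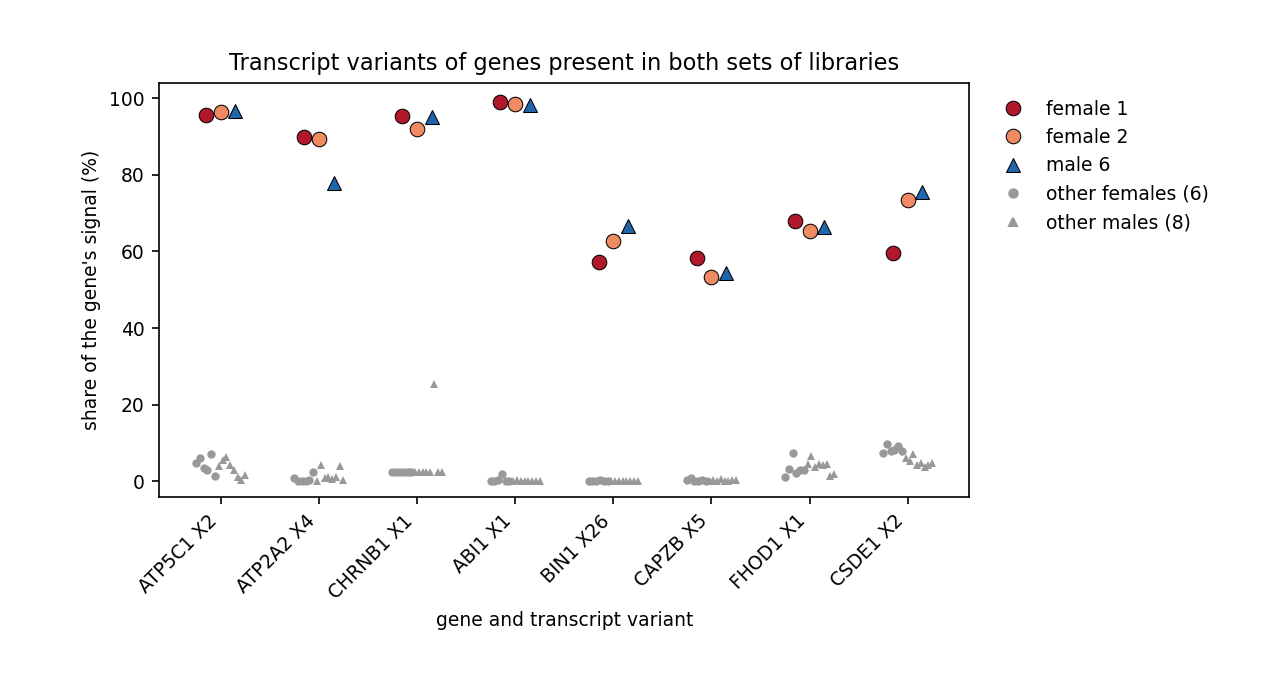
Share of the gene's signal, in percent, taken by 1 transcript variant in each library for 8 genes; coloured symbols are the 3 muscle-rich libraries and grey symbols the other 14. The coloured points lie at 53.4% or more for every variant and the grey points at 25.3% or less. For CHRNB1 the lowest and the median grey share were both 2.41%. Whether so constant a share reflects the assignment of reads was not tested.

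Over all transcripts in the females, 194 of 4010 genes (4.84%) met the same criterion. TPM1 gave 98.5% to 99.1% of its signal as variant X5 in the 2 muscle-rich females and at most 0.0799% in the others. MEF2D gave 81.9% to 83.0% as variant X7, against at most 1.69%. SLC25A3, the mitochondrial phosphate carrier, gave 67.7% to 72.0% as variant X5, against at most 0.000477%. Thin-filament, transcription factor and carrier genes were thus all among those with a transcript hardly used in the other 6 females. The count was 340 without female 1.

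Signal of other tissues accompanied the muscle. Fat cell genes were higher in 6 of 7 shared cases and 14 of 14 in the females, with 4 and 7 members under 1 in the other libraries. ADIPOQ, the hormone adiponectin, read 15.3, 46.9 and 28.2 against 0 to 0.0988 (median 0), and FABP4, the fatty acid carrier of adipocytes, 315, 277 and 139 against 0 to 1.91 (median 0.128). LEP, the hormone leptin, read 124 and 45.7 in the females against 0 to 0.318 (median 0). ADIPOQ was therefore near 0 in the other 14 libraries, and LEP in the other 6 females. AQP7, a glycerol channel that the proximal tubule also carries, did not meet the criterion, at 51.8, 47.0 and 32.3 against 1.80 to 41.2 (median 28.2).

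Connective tissue genes were higher in 9 of 12 cases, where 1277 of the 4903 genes from A to K were higher. In the females 9 of 16 were higher, against 33.7% of all genes. FBLN1, MFAP5, LUM, DCN, THY1, DPT and PI16 met neither criterion there. COL1A1, the main collagen of tendon and fascia, read 388, 264 and 1245 against 12.6 to 60.9 (median 19.1). COL3A1 read 298, 189 and 417 against 11.0 to 52.9 (median 22.8). DCN, a small collagen-binding proteoglycan, overlapped at 448, 124 and 747 against 32.7 to 274 (median 72.6). Male 6 was the highest of the 3 in COL1A1, COL3A1 and DCN. Endothelial genes met neither criterion in 8 of 9 cases, CDH5 being the higher one at 37.2, 43.5 and 48.1 against 13.6 to 28.1 (median 18.0). Within the females CDH5 missed the criterion, and under upper-quartile scaling 0 endothelial genes were higher. KDR, TEK, PECAM1, PLVAP and TIE1 come after KCTD9, so a higher call was not open to them over the 17 libraries. In the females 1 of 13 endothelial genes was higher, 3 were lower and 9 neither, where 33.7% of all genes were higher and 13.5% lower. VWF, stored in endothelial granules, was the higher one (199 and 149.9 against 2.68 to 15.9). KDR, EMCN and EHD3 were lower, EHD3, a marker of glomerular endothelium, at 3.79 and 5.68 against 33.0 to 92.8. Smooth muscle ACTA2 overlapped at 138, 153 and 137 against 10.3 to 153 (median 43.5). The parts of fat, fascia and vessels in the differences above were not tested.

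Heart genes gave a mixed picture. TNNT2, the cardiac troponin T, read 0, 0 and 2.49 against 0.454 to 7.85 (median 1.96). MYH6, the alpha myosin heavy chain, read 358 and 385 in the females against 0 to 0.112 (median 0), but its slow-muscle neighbour MYH7 was not found under its symbol and reads of these near-identical genes can be split between them. TNNI3, the cardiac troponin I, read 13.0 and 12.3 against 0 to 0.574 (median 0.130). Macrophage, lymphocyte and liver genes met neither criterion in all 8 shared cases, with CD68 of macrophages at 6.15, 0.947 and 7.63 against 1.74 to 4.80 (median 3.14). Of the immediate early genes, which respond within minutes to stress and handling, JUN (170.1, 274 and 132 against 14.2 to 79.8), ATF3 (67.2, 18.3 and 11.7 against 0.337 to 8.27) and DUSP1 (64.4, 188 and 82.2 against 8.24 to 56.7) were higher, and IER2 was lower (11.1, 12.0 and 15.0 against 19.3 to 50.8), while the other 4 of the 8 met neither criterion. After median scaling 0 were lower. Among all genes from A to K, 1277 of 4903 were higher. Over the 8 genes, mean log2(signal + 1) was 5.17, 5.27 and 5.03, and a kidney library, male 1, read above these at 5.56. In the females 6 of 9 were higher and 1 lower, where 33.7% and 13.5% of all genes were. Of 9 housekeeping entries, 2 were higher, 2 lower and 5 neither, where 13.0% of all genes were higher and 13.7% lower. Their median log2 difference was -0.45. GAPDH, a glycolytic enzyme often used as a reference, was among the higher at 10608, 10290.3 and 8708 against 195 to 715 (median 321).

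Few genes separated the 3 libraries strongly. Among the 2890 genes that reached a signal of 20 in any of the 3, 11 differed at least 8-fold between the 2 females, and 22 were at least 8 times higher in male 6 than in both. The cartilage and tendon matrix proteins COMP and FMOD stood out in male 6, which read 353 and 667, against 0.237 and 0.316 for COMP and 1.89 and 0.316 for FMOD in female 1 and female 2. The other 14 libraries held 0 to 0.394 (median 0.187) of COMP and 0.636 to 6.10 (median 2.53) of FMOD. Male 6 therefore differed from the kidney libraries and from the other muscle-rich ones alike.

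Some fibrillar and associated collagens belonged to the same set. COL12A1, on the surface of tendon fibrils, read 19.6, 5.68 and 213 against 12.4 to 30.2 (median 23.0). COL11A1, of cartilage and growing fibrils, read 0.710, 0 and 49.9 against 0 to 1.32 (median 0.376). COL22A1, found where muscle meets tendon, read 0.710, 0.316 and 231 against 0.0531 to 0.829 (median 0.177). In each, male 6 was above all 16 other libraries. CILP2 of cartilage (0, 0 and 96.9 against 0 to 0.189), CHAD, or chondroadherin (0.947, 3.79 and 169 against 6.80 to 36.6), the protease ADAMTS8 (4.73, 1.58 and 282 against 0.636 to 3.37) and ANGPTL7 (0.947, 0 and 71.9 against 0 to 7.13) were others, named after their values were seen. The sum of the 6 shared tendon genes was 41.0, 10.4 and 1301, against 16.8 to 73.6 in the other 14. That sum includes COL14A1 and TNC, whose values are not given here and which are not counted among the genes that stood out in male 6. None of the 6 met the criterion over the 3 libraries.

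**Figure D5:**
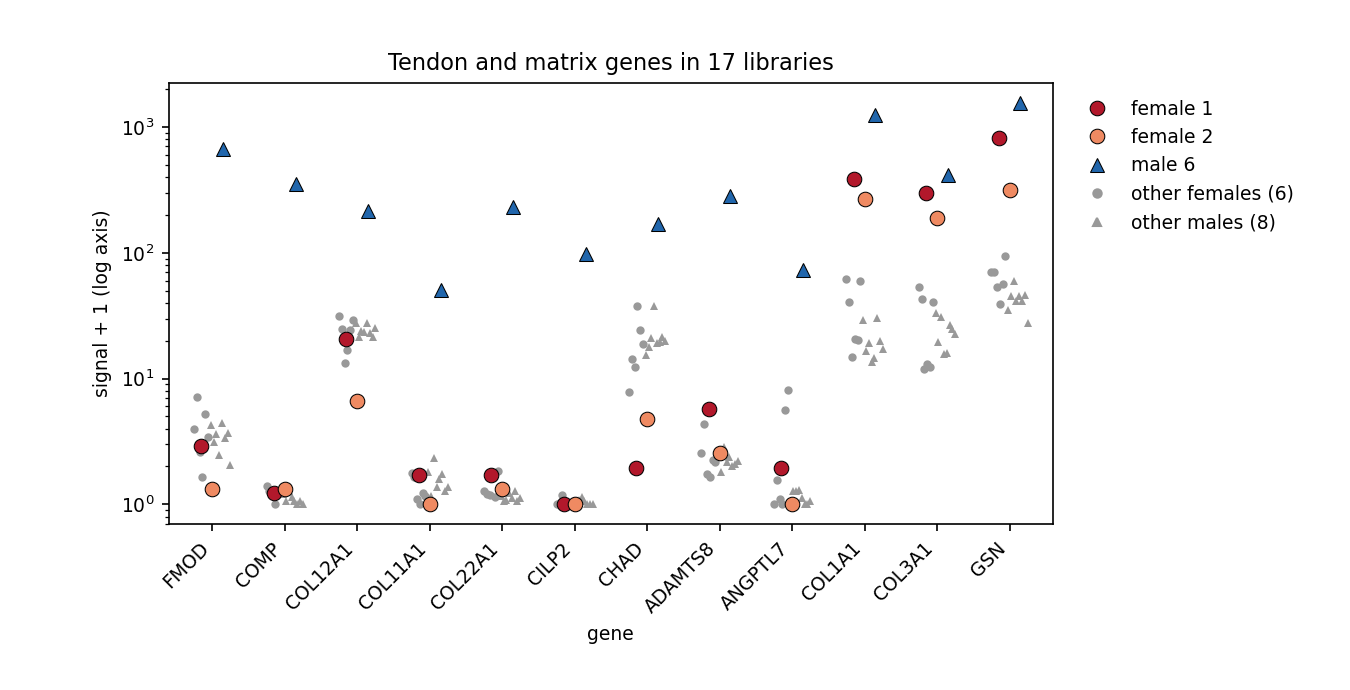
Signal + 1 on a log axis for tendon and matrix genes in all 17 libraries; coloured symbols are the 3 muscle-rich libraries and grey symbols the other 14. Male 6 lies above all others in each of the 12 genes, while female 1 and female 2 lie above the grey points in COL1A1, COL3A1 and GSN and not clearly in the tendon genes. COL14A1 and TNC of the tendon list are not shown.

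Kidney genes were also in the male 6 set, with UMOD, SLC12A1, AQP2, MIOX, SLC22A2 and SLC3A1 among the 22. Between the females, ANKRD1 was higher in female 1 (446 against 17.0), and so was CHIT1, a chitinase of activated macrophages, at 39.4, 0 and 1.17 against 0 to 0.473 (median 0.0366). ITIH1 was higher in female 2, at 2.37, 30.3 and 6.46. The 15 genes at least 8 times lower in male 6 than in both females all have symbols from L to Z, the range in which the male rows hold no turquoise transcript, and are not described further.

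The authors' module colours can be set beside these differences, with the caution that the modules were built from the same libraries. Over all shared transcripts, 11.7% were higher and 11.4% lower. In the male rows, 41.0% of the 4883 turquoise transcripts were higher in the 3 libraries and 0 of the other 8 modules held a higher transcript. All 1949 lower transcripts lay in those 8 modules, from 1.79% of grey to 24.3% of greenyellow. Of all transcripts measured in females, 29.2% were higher and 12.4% lower. There, 63.7% of the 11110 blue transcripts were higher in the 2 muscle-rich females, while brown (26.9%) and green (10.4%) lay below the share of all transcripts. Lower transcripts made up 56.1% of grey60, 46.6% of pink and 43.4% of royalblue. No module of either table held both higher and lower transcripts, and purple, greenyellow, darkgreen and grey of the female table held neither. Of 291 long non-coding RNA genes, 0 were higher and 76 lower over the 17 libraries, where all 291 carry LOC symbols, which the turquoise rows held here do not reach. Of 434 in the females over all transcripts, 65 were higher and 98 lower.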

How the data were processed

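RNA of ultrasound-guided kidney cortex biopsies from 8 female and 9 male baboons was measured with 1 stranded mRNA library per animal, per the labels' protocols. The deposited signal per transcript carries an offset of 1, and the authors' table holds module colours beside it. Partek is named in the submitters' processing notes; the sources used here name no aligner, build, scaling or depth. Signal was taken as the deposited value minus 1 and summed per gene. Genes with a mean signal of at least 1 in either set were kept. Libraries were grouped by the ACTA1 and CKM threshold of 10000, so differences of mean log2(signal + 1), with a pseudocount of 1, were described without p-values. The step was checked on simulated data. Transcripts were joined by ID, and the last male row, cut off in the file, was dropped. The members, the 36 gene lists and the enzyme pairs were chosen with earlier results of these data known. Named genes were the 5 markers, the list members of highest signal and those against their list, the 15 genes outside the lists with the largest difference each way (10 for the female table alone), the 10 largest transcript shifts and the top genes of each library; others are identified as chosen after their values were seen or belong to named families. Alternatives were median and upper-quartile scaling, other pseudocounts and filters, single transcripts, each sex alone and each muscle-rich library left out; leaving out female 3 was added after seeing the data. Python 3.11.15, numpy 2.4.6 and pandas 2.3.3 were used. Results for some genes are not reported here.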

Additional observations from a re-analysis of the deposited data

Results flagged for a closer look

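In 17 of 62 sets of values, 1 library stood apart from the rest of its sex by the gap to its nearest neighbour, and in all 17 it was male 6 among the 9 males. Chance alone flags about 1 in 20. Male 6, however, was selected for its muscle signal and is the only such male, so the number is no result. The 2 muscle-rich females lie near each other, and no female stood apart. The mean log2(signal + 1) of male 6 was 12.4 over the fast-fibre genes, 9.45 over the sarcomere scaffold, 9.03 over muscle protein turnover and 7.81 over excitation-contraction coupling. It was 4.44 over the neuromuscular junction, 6.57 over the dystrophin complex and 8.76 over muscle energy supply. On the kidney side it was 2.81 over the proximal tubule, where the other males read 6.63 to 7.94, and 3.61 over the thick limb, where they read 5.59 to 6.55. The distal convoluted tubule gave 1.41, principal cells 2.82, intercalated cells 2.43 and the nephron transcription factors 2.41. Fat cell genes gave 6.02 against 1.81 to 2.48, connective tissue 8.71 against 4.44 to 5.32, and tendon 6.16 against 1.57 to 2.33. The tendon gap was not shared by the muscle-rich females, at 1.89 and 0.983, where the other females gave 1.02 to 2.82. The number of genes with a signal of at least 1 was 7835 in male 6 and 9040 to 9221 in the other males.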

How the results depend on the processing

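No paired analysis was possible because replicate numbers follow accession order only. Genes lower in the 3 libraries numbered 551 with a pseudocount of 10, 767 with a filter at a mean signal of 10 and 3074 in males only; the higher count was 2154 in females only and 2003 for transcripts counted singly. For the female table alone, median scaling gave 1246 higher and 893 lower, upper-quartile scaling 885 and 1387, and a pseudocount of 10 gave 1735 and 45, while a filter at 10 left 90 lower. Over all female transcripts upper-quartile scaling gave 2151 higher and 3512 lower. Lower genes of the female table alone ranged from 425 to 547 with 1 muscle-rich female left out. Transcript shifts were 120 at 30 percentage points and 20 at a gene signal of at least 20 over the 17 libraries, and 673 and 65 in females, where they ranged from 270 to 340 with 1 muscle-rich female left out. The tendon list's median was -0.90 in females only and ranged from -0.90 without male 6 to 2.28 with 1 library left out. Of the other values recomputed, for lists and named genes, 623 moved by less than the spread between libraries and 314 by more. Medians under 1 in size also changed sign: macrophage genes from -0.53 to 0.21 without female 2 and 0.61 in males only, lymphocyte genes from -0.41 to 0.33 and myogenic factors from 0.47 to -0.26 in males only. The causes were not tested. The depth is unknown, so low signals carry no counting interval.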
